A study of Mus musculus with 6 samples.

Results

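Imprinted genes are transcribed mainly from the chromosome copy inherited from one parent. This account follows 34 named imprinted mouse genes through whole hearts at embryonic day 9.5, chosen by name from general knowledge of imprinting. The count table held 27 of them among 30323 gene IDs, and 25 had enough counts to be tested among 14697 tested genes. Of the other 2, Usp29 was listed at 0 in every library and Slc22a18 was below the filter on low counts. In all, 8820 IDs were at 0 in every library. The transcript set used for counting is not given, so a 0 throughout need not mean that a gene is silent. The 7 names without a row (Kcnq1ot1, Airn, Peg13, H19, Meg3, Rian and Mirg) are noncoding RNA genes and were not analysed here; the table consists largely of protein-coding genes, with 21443 such rows and 35 rows of long intergenic noncoding RNA.

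The groups were 3 heart libraries labelled C57BL/6 ctrl, called control here, and 3 with the genotype label CDC-42 KO, which the series describes as a myocardial Cdc42 knockout and which are called MCKO. Cdc42 is a small GTPase of cell polarity and the actin skeleton. The driver of the deletion, the alleles the controls carry, litters, sex and parental strains are not given in the sources used. Without a cross between strains the reads do not tell the parental alleles apart, so every value below is the summed output of both copies. The design asks which transcripts differ when heart muscle lacks Cdc42.

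Levels are in CPM, the counts of a gene scaled to a fixed library size, after TMM scaling, which adjusts library size so that most genes stay level between libraries. A gene was called higher or lower when the adjusted p of edgeR's quasi-likelihood test was under 0.05, and log2 fold changes are MCKO over control. Library totals ran from 19256840 to 34246477 estimated counts, and 3 counts in a library corresponded to 0.0894 to 0.153 CPM. Cdc42 (ENSMUSG00000006699, chromosome 4, 137319696 to 137357720, minus strand, GRCm38) held 390.4, 371 and 413 CPM in control replicates 1, 2 and 3 and 253, 245 and 245 CPM in MCKO replicates 1, 2 and 3, a log2 fold change of -0.66 (SE 0.047, edgeR adjusted p = 2.93e-06). Markers of cardiomyocytes, the muscle of the labelled tissue, were abundant in both groups, with summed levels of 33871 to 37394 CPM in controls and 42275 to 43964 CPM in MCKO. Markers of other cells moved strongly: all 10 primitive red cell markers were called higher (median log2 fold change 1.07) and 8 of 10 cushion mesenchyme markers were called lower (median -1.42). The shares of all tested genes called higher and lower were 29.3% and 29.1%. Control libraries gave 3.13 to 3.55% of their counts to the mitochondrial genome, and MCKO libraries 1.31 to 1.38%. In bulk RNA, fewer cells of a type and less RNA per cell cannot be told apart.

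For many imprinted genes the parent-specific mark is DNA methylation laid down in one germ line at a control region and kept through the embryo's cell divisions. The zinc finger protein ZFP57 binds the methylated copy of many control regions through the sequence TGCCGC and recruits TRIM28, and DNMT1 with UHRF1 copies the methylation at each division. Many imprinted genes act on fetal growth: paternally expressed genes such as Igf2 often promote it and maternally expressed genes such as Igf2r, Cdkn1c and Grb10 often restrain it. In the heart, Igf2 is a growth factor for the expanding ventricular muscle, and the imprinted cell-cycle inhibitor Cdkn1c is made in the forming trabeculae.

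The promoters of 5 members are printed because these genes carry the largest called falls (Mest, Plagl1, Nap1l5), the largest rise (Ascl2) and a start region shared by 2 members (Peg3 with Usp29). Each runs 5′ to 3′ on the gene's strand, from 250 bases before to 50 bases after a transcript start in RefSeq's GRCm38.p6, and capitals mark TGCCGC or its reverse complement GCGGCA. The windows are chr6:30737800-30738099 on the plus strand, chr10:13090582-13090881 on the plus strand, chr6:58907077-58907376 on the minus strand, chr7:142969215-142969514 on the minus strand and chr7:6730370-6730669 on the minus strand.
Mest: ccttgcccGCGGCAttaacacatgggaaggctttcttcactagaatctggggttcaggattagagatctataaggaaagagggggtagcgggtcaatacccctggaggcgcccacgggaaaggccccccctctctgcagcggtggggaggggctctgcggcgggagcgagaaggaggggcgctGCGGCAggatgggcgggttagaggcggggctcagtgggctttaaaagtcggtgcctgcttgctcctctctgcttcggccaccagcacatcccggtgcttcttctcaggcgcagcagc
Plagl1: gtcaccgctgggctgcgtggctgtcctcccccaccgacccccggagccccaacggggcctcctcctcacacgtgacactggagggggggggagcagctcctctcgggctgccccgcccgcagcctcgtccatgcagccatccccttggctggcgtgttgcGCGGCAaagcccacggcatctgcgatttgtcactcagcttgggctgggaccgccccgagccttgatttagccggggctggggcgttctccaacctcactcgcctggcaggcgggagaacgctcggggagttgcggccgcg
Nap1l5: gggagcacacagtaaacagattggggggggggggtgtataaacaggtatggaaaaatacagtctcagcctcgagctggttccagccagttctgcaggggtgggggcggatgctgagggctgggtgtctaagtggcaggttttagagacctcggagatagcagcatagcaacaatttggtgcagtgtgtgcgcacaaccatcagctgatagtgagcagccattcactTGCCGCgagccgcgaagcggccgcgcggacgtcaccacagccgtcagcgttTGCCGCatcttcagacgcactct
Ascl2: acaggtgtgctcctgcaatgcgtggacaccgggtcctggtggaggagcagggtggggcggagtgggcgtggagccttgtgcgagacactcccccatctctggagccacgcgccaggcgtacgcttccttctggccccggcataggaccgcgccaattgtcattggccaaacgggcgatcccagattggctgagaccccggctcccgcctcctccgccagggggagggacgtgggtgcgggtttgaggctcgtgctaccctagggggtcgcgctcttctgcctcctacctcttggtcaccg
Peg3: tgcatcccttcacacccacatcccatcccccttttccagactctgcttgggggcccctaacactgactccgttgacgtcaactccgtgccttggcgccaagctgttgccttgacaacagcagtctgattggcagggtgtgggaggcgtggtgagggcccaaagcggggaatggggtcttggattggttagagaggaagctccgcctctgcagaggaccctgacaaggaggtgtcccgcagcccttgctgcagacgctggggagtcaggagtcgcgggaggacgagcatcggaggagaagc

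The printed windows of Mest and Nap1l5 held 2 matches each and that of Plagl1 held 1, while the Ascl2 and Peg3 windows held none. Another Mest window, chr6:30733256-30733555, held 0 matches and 8 CpG pairs. CpG pairs, the substrate of the methylation mark, numbered 17 in the printed windows of Mest and Nap1l5, 26 in that of Plagl1, 23 in that of Ascl2 and 13 in that of Peg3. The window of Usp29, which is transcribed in the opposite direction, shares 263 bases with that of Peg3. RefSeq windows were matched for 22 of the 27 members, without Peg10, Sgce, Cdkn1c, Rtl1 and Impact. A match on either strand was found in at least 1 window of 8 of these 22 genes (36.4%), against 13.1% of 27025 genes with a window. Some genes have several windows, and per window the shares were 24.3% of 37 and 11.6% of 32851. A further Mest window, chr6:30737803-30738102, overlaps the printed one and holds the same 2 matches, and both windows count in that share. The other 5 members with a match were Nnat, Zim1, Snrpn, Igf2 and Grb10. The median number of CpG pairs per window was 13 in the members and 7 over all windows. A match describes these letters only and is no evidence of binding.

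Of the 25 tested members, 14 were called (56%), against 58.4% of all tested genes. The 8 called higher were Ascl2, Asb4, Peg10, Igf2r, Zrsr1, Sgce, Snrpn and Peg3 (32% of the members, against 29.3% of all genes). The 6 called lower were Nap1l5, Plagl1, Mest, Zim1, Ndn and Impact (24%, against 29.1%). Called members with a change of at least 2-fold were Ascl2 and Nap1l5 only, 8% of the members against 11.0% of all genes. Ascl2 passed the filter on low counts only through the MCKO libraries, so its place among these counts is no support for them. The other 12 called changes measured 0.13 to 0.63 on the log2 scale in either direction. The 3 control and 3 MCKO libraries did not overlap for 17 members (68%), against 64.7% of all genes, and Rtl1, Magel2 and Slc38a4 among these were not called. The median log2 fold change was -0.10 in the members and 0.00 over all genes, and the median absolute change was 0.33 and 0.31. The share of imprinted genes that changed was therefore near that of any expressed gene in this comparison.

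The called lower count was the less stable of these. It was 10 without control replicate 3, 10 with library totals in place of TMM factors and 13 after an offset for GC content and transcript length, and the called higher counts there were 8, 6 and 7. In each of these 3 fits Igf2, Dlk1 and Nnat were added to the genes called lower. All tested genes shifted too in 2 of these fits. Higher calls were 42.6% of 8766 calls with library totals and 42.5% of 9574 with the offset, against 50.2% of 8587 in the main fit. The median log2 fold change of all genes was -0.06 in both. Without control replicate 3 higher calls were 50.6% of 8695. Of the 14 called members, Peg3 and Zrsr1 lost their calls in some alternatives, and the other 12 kept theirs in each alternative that gave them a value. Ascl2 and Nap1l5 gave none where at least 50 counts in 3 libraries were required.

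**Figure D1:**
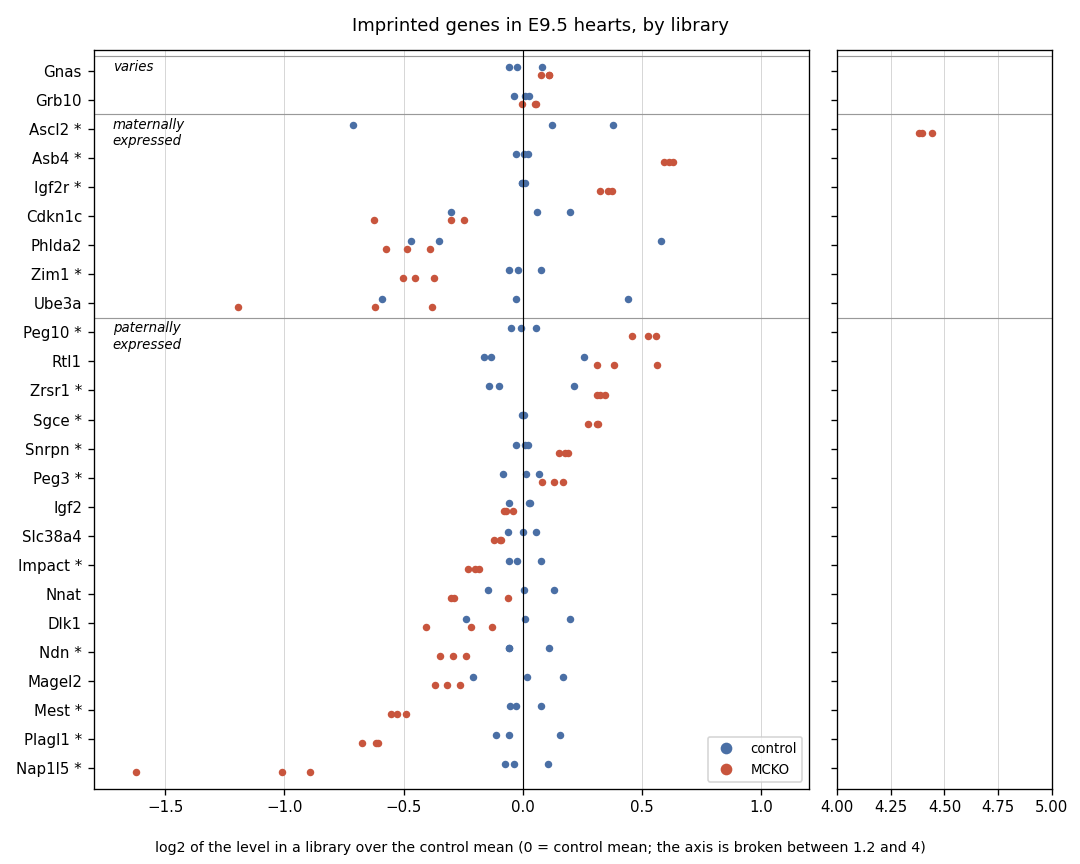
Each point is the level of 1 imprinted gene in 1 library, as log2 over the mean of the 3 control libraries, for the 25 tested members grouped by expressed allele, and an asterisk marks members called in the edgeR fit. The 3 MCKO points of Ascl2 stand beyond a break in the axis, and those of Asb4, Peg10, Igf2r, Mest, Plagl1 and Nap1l5 are clear of their controls.

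Called members of both directions were found in each parental class. The classes come from general knowledge of imprinting, and the allele used in these hearts was not measured for any member. Of 16 tested paternally expressed members, 5 were called higher and 5 lower, with a median log2 fold change of -0.16. Of 7 tested maternally expressed members, 3 were called higher and 1 lower, with a median of -0.38. These 7 include Ube3a, which is imprinted in neurons, and Ascl2, which passed the filter only through MCKO. Grb10 and Gnas, whose allele use varies with tissue or promoter, were counted in neither class. With so few genes these placements affect the count and the median. Over all tested genes 29.3% were called higher and 29.1% lower, and the paternal counts lie near those shares. The share of all counts that went to paternally expressed members was 1.06 to 1.10% in controls and 0.913 to 0.927% in MCKO. For maternally expressed members it was 0.367 to 0.385% and 0.421 to 0.430%. These shares rest on few abundant genes and do not describe a class. Igf2r averaged 2797 CPM of a maternal sum of 3583 to 3789 CPM in controls, and 3567 of 4318 to 4387 CPM in MCKO. Among paternally expressed members Mest fell from 3002 to 2088 CPM and Plagl1 from 784 to 506 CPM, while 5 were called higher. All members together made up 1.77 to 1.79% of a control library and 1.65 to 1.68% of an MCKO library. Igf2, Mest, Igf2r, Grb10 and Peg3 supplied 77.7 to 79.6% of that in every library.

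Igf2, the paternally expressed growth factor (ENSMUSG00000048583, chromosome 7, 142650766 to 142666816, minus strand), held 4708, 4692 and 4432 CPM in controls and 4363, 4389 and 4480.1 CPM in MCKO. The groups overlapped, and the estimated log2 fold change stood at -0.06 (SE 0.039, edgeR adjusted p = 0.185). It was called lower in 4 of 16 alternatives, which were library totals, the GC and length offset with and without a block, and the fit without control replicate 3 (-0.09, edgeR adjusted p = 0.0479). Its range over all 16 was -0.19 to -0.05. Over 76.2% of its length the longest Igf2 transcript is identical to a transcript of a separate gene ID, ENSMUSG00000115302. How the authors' estimates divided reads of that sequence is not given.

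Igf2r, the maternally expressed receptor that carries IGF2 to the lysosome and so removes it, was called higher (ENSMUSG00000023830, chromosome 17, 12682406 to 12769664, minus strand). Controls held 2786, 2812 and 2792 CPM and MCKO hearts 3619.6, 3582 and 3499 CPM, with a log2 fold change of 0.35 (SE 0.035, edgeR adjusted p = 2.61e-05). The control values lay within a narrow band and every MCKO value stood well above it. With the GC and length offset the log2 fold change was smaller, 0.15 (edgeR adjusted p = 0.000241). Grb10, an adaptor that dampens insulin and IGF receptor signalling and is expressed from the maternal copy in most tissues, held 2112, 2045 and 2138 CPM and 2181, 2176 and 2094 CPM. Its groups overlapped, with a log2 fold change of 0.04 (SE 0.038, edgeR adjusted p = 0.45) that became -0.03 with library totals as the scale.

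Cdkn1c, a maternally expressed inhibitor of cyclin-dependent kinases, held 605, 665 and 470.3 CPM in controls and 377, 471 and 488 CPM in MCKO. Control replicate 3 was as low as MCKO replicates 2 and 3, and the log2 fold change of -0.38 (SE 0.16) was not called (edgeR adjusted p = 0.0884). Without that control library it was -0.51 (edgeR adjusted p = 0.0416), and with the GC and length offset it was -0.67 (edgeR adjusted p = 0.00154). Its neighbour Phlda2, which restrains placental growth, was low, at 1.09, 2.25 and 1.18 CPM in controls and 1.01, 1.15 and 1.07 CPM in MCKO. The groups overlapped and the log2 estimate was -0.44 (SE 0.29, edgeR adjusted p = 0.224). The log2 ratio of Cdkn1c to Phlda2 averaged 8.63 in controls and 8.66 in MCKO (difference 0.02, exact permutation test, 2-sided p = 0.9, adjusted p = 0.9 over 2 ratios). With 3 libraries against 3 that test cannot go below 0.1.

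Other genes of insulin and IGF signalling included several large rises. Of 30 tested genes of a list of 35, 17 were called higher and 7 lower, with a median log2 fold change of 0.26, where 29.3% and 29.1% of all tested genes were called in those directions. With the GC and length offset the counts were 15 and 11. The rises named by rule were those of secreted modulators. Igfbp3, a carrier of IGFs in the extracellular space, was 21.2 ± 0.735 CPM (SD, n = 3) in controls and 189 ± 4.67 CPM in MCKO, a log2 fold change of 3.16 (SE 0.049, edgeR adjusted p = 3.93e-10). Stc1 was 7.50 ± 0.171 and 62.3 ± 1.28 CPM (SD, n = 3), and Stc2 was 7.76 ± 0.822 and 104 ± 3.96 CPM (SD, n = 3). Stanniocalcins inhibit the pappalysin proteases that cleave IGF-binding proteins, and the log2 fold changes were 3.05 (SE 0.056, edgeR adjusted p = 1.09e-09) and 3.76 (SE 0.077, edgeR adjusted p = 1.66e-09). The falls named by rule were Igf1, the second IGF ligand (-0.65), Igfbp4 (-0.44) and the kinase gene Akt2 (-0.39), with edgeR adjusted p of 0.000194, 0.00016 and 2.49e-05. The signalling receptors, named here after their values were seen, were both called higher. Igf1r had a log2 fold change of 0.52 (SE 0.044, edgeR adjusted p = 9.44e-06) and Insr of 0.93 (SE 0.05, edgeR adjusted p = 5.22e-07).

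**Figure D2:**
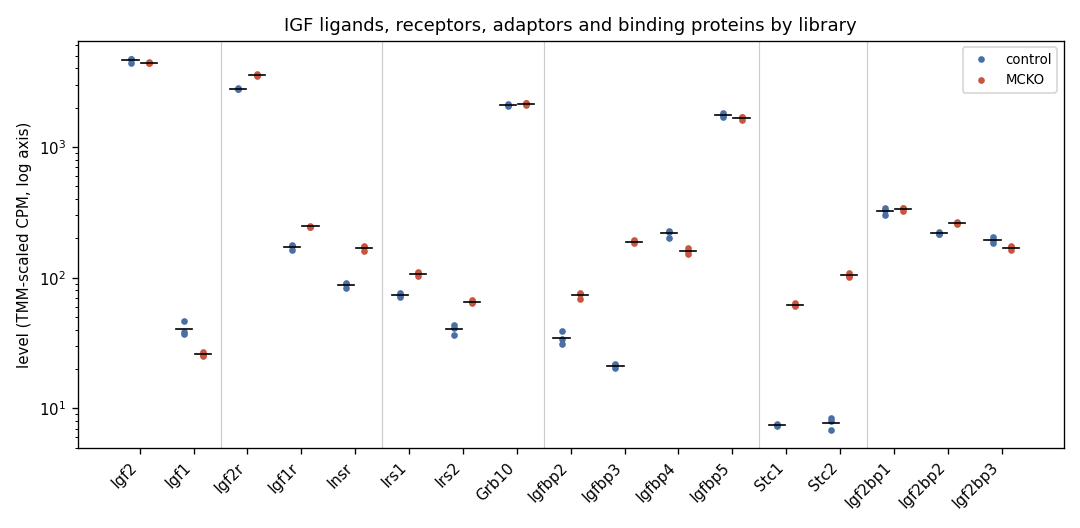
Points are levels of IGF ligands, receptors, adaptors, binding proteins, stanniocalcins and Igf2 mRNA-binding proteins in single libraries (TMM-scaled CPM, log axis, not per length), and bars are the mean of the 3 libraries of a group. Igf2 and Grb10 overlap between groups while Igf2r, Igf1r, Insr, Igfbp3, Stc1 and Stc2 are higher in all 3 MCKO libraries.

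Transcriptional regulators among the members included some of the largest changes. Plagl1, a paternally expressed zinc finger factor that acts on other imprinted genes in mouse, is made in embryonic heart muscle and mesenchyme (ENSMUSG00000019817, chromosome 10, 13060504 to 13131694, plus strand). It held 725, 752 and 874 CPM in controls and 515, 511 and 492 CPM in MCKO, with no overlap, and its estimated log2 fold change stood at -0.63 (SE 0.067, edgeR adjusted p = 4.76e-05). Zim1, a maternally expressed zinc finger gene (ENSMUSG00000002266, chromosome 7, 6671269 to 6696450, minus strand), fell from 165, 160.4 and 176 CPM to 129, 122 and 118 CPM, a log2 fold change of -0.44 (SE 0.052, edgeR adjusted p = 7.53e-05).

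Zim1 lies beside Peg3, a paternally expressed gene for a large zinc finger protein (ENSMUSG00000002265, chromosome 7, 6703892 to 6730431, minus strand), and the 2 genes moved in opposite directions. Peg3 held 1157, 1084 and 1203 CPM in controls and 1289, 1259 and 1214 CPM in MCKO. The MCKO values all lay above the controls, by little, and the log2 difference came to 0.13 (SE 0.047, edgeR adjusted p = 0.0433). That call was lost in 9 of 16 alternatives, and with the GC and length offset the estimate was -0.01. It was also lost without control replicates 1 and 2 and without MCKO replicates 1 and 2, each left out alone (edgeR adjusted p 0.107 to 0.149), and with a replicate block (edgeR adjusted p = 0.0995). Usp29, which starts within the same promoter region as Peg3, was listed at 0 in every library.

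Ascl2 had the largest change of the tested members. This maternally expressed basic helix-loop-helix factor is best known from placental trophoblast precursors and intestinal stem cells (ENSMUSG00000009248, chromosome 7, 142966829 to 142969264, minus strand). The controls held 3, 1 and 3 counts and the MCKO libraries 61, 44 and 41 counts, which are 0.109, 0.0511 and 0.0909 CPM and 1.82, 1.74 and 1.76 CPM. Each control library held 3 counts or fewer, and each MCKO library held more than all controls together. Pooled MCKO and control counts, 146 against 7, stood at 19.5 to 1 after scaling by library totals. The 95% limits of 9.23 and 49.4 cover counting error only. The fitted log2 fold change came to 4.28 (SE 0.3, edgeR adjusted p = 2.6e-06), and at such low control counts its size depends on the prior count. Since only the MCKO libraries carried Ascl2 past the filter on low counts, a tested Ascl2 had to differ, and the p is a description. The trophoblast markers Prl3d1 and Tpbpa were at 0 in every library. The summed trophoblast list was 65.8 to 85.3 CPM in controls and 58.0 to 69.9 CPM in MCKO. Most of that sum came from Hand1, which heart cells also express. Of 3 tested trophoblast markers 0 were called higher and 1 lower, against 29.3% and 29.1% of all tested genes. The marker called lower was Plac1, with a log2 fold change of -1.45 (edgeR adjusted p = 4.47e-05).

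A second set of members derives from retroelements or sits beside such a gene. Peg10, a paternally expressed gene with retroviral-like reading frames that placental growth requires (ENSMUSG00000092035, chromosome 6, 4747306 to 4760517, plus strand), held 344, 335 and 359 CPM in controls and 509, 497 and 475 CPM in MCKO, a log2 fold change of 0.51 (SE 0.044, edgeR adjusted p = 1.05e-05). Sgce encodes epsilon-sarcoglycan, a membrane protein of the dystrophin-associated complex (ENSMUSG00000004631, chromosome 6, 4674350 to 4747207, minus strand). It starts 98 bases from Peg10 on the other strand, and rose from 33.8, 33.8 and 33.9 CPM to 42.0, 40.9 and 42.1 CPM, a log2 fold change of 0.30 (SE 0.047, edgeR adjusted p = 0.000464). The log2 ratio of Peg10 to Sgce was 3.34, 3.31 and 3.40 in controls and 3.60, 3.60 and 3.49 in MCKO. The difference of 0.21 gave p = 0.1 in the exact permutation test (2-sided, adjusted p = 0.2), the smallest p it can give. Rtl1, another retroelement-derived gene that placental capillaries need, was 1.05, 1.38 and 1.03 CPM in controls and 1.43, 1.70 and 1.50 CPM in MCKO. Its groups did not overlap, but the log2 fold change of 0.44 (SE 0.2) was not called (edgeR adjusted p = 0.0876).

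Asb4, which encodes a substrate receptor of a ubiquitin ligase and is maternally expressed, lies in the same cluster (ENSMUSG00000042607, chromosome 6, 5383386 to 5433022, plus strand). It held 126, 122 and 125 CPM in controls and 189.8, 187 and 192 CPM in MCKO, and the estimated log2 fold change stood at 0.61 (SE 0.038, edgeR adjusted p = 1.3e-06), the smallest p of any member. All 3 members of the Peg10 cluster were therefore called higher, 2 paternally and 1 maternally expressed. Calls of the other listed imprinted genes there were mixed. Ppp1r9a, between Peg10 and Asb4, was not called (0.02), Pon2 was called higher (0.17), and Pon3, Casd1, Tfpi2 and Calcr were called lower (-0.31, -0.27, -0.94 and -1.42). In the cluster from Igf2 to Osbpl5 on chromosome 7, Ascl2, Cd81 and Kcnq1 were called higher, Tssc4, Nap1l4 and Osbpl5 were called lower, and Igf2, Th, Tspan32, Cdkn1c, Phlda2, Tnfrsf22 and Tnfrsf23 were not called. The neighbours were named from a list of other imprinted genes, of which Ins2, beside Igf2, was listed at 0 in every library. Allele use of the neighbours in these hearts was not measured, so their calls do not test whether an imprinted cluster changed as a whole.

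**Figure D3:**
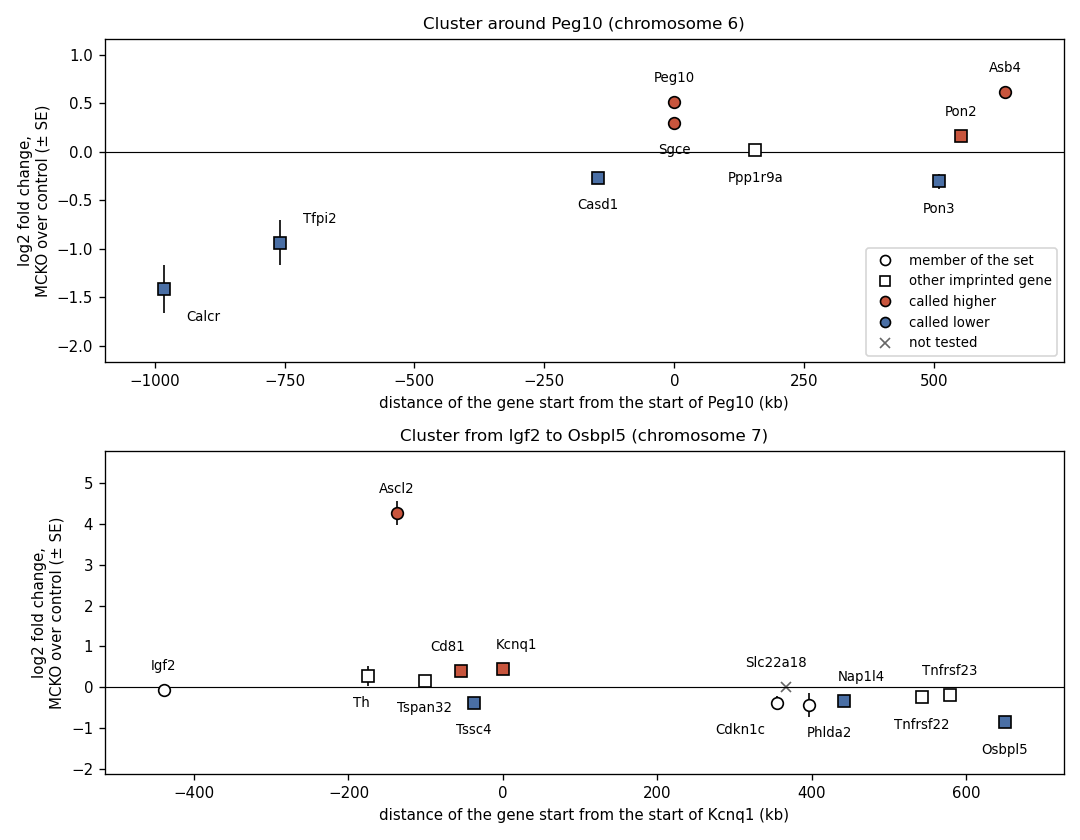
Log2 fold change (± SE) of imprinted genes against the distance of their start from that of Peg10 (upper panel) and of Kcnq1 (lower panel), with circles for the members described here and squares for other imprinted genes; red and blue fills are edgeR calls. Genes called higher and lower are interspersed in both clusters, and Ascl2 at 4.28 stands alone.

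Mest, the paternally expressed gene of a hydrolase-like membrane protein and a marker of embryonic mesoderm, is the most abundant member per length in controls (ENSMUSG00000051855, chromosome 6, 30723547 to 30748465, plus strand). It held 2945, 2896 and 3164 CPM in controls and 2134, 2083 and 2046 CPM in MCKO. No library overlapped with the other group and the groups differed by a log2 fold change of -0.52 (SE 0.044, edgeR adjusted p = 8.89e-06). Its 3′ end overlaps Copg2 on the other strand by 912 bases, and Copg2 had a log2 fold change of 0.03. Mest and Plagl1 are both expressed in mesenchyme. The summed level of the cushion mesenchyme markers was 555 to 587 CPM in controls and 230 to 238 CPM in MCKO. Of 10 such markers 8 were called lower, against 29.1% of all tested genes. The part of that shift in the falls of Mest and Plagl1 was not tested.

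Dlk1, a paternally expressed transmembrane protein related to Notch ligands, was 31.0, 35.3 and 26.1 CPM in controls and 23.2, 26.5 and 28.2 CPM in MCKO. The groups overlapped, with a log2 fold change of -0.24 (SE 0.12, edgeR adjusted p = 0.107), and it was called lower without control replicate 3 (-0.35, edgeR adjusted p = 0.00575). Nnat, a small membrane protein of the endoplasmic reticulum, was 56.4, 61.5 and 50.7 and 45.6, 46.0 and 53.8 CPM, and the overlap came from MCKO replicate 3, which lay above control replicate 3. Its estimated log2 fold change stood at -0.21 (SE 0.087, edgeR adjusted p = 0.0632). Without control replicate 3 it was -0.28 (edgeR adjusted p = 0.00899), without MCKO replicate 3 it was -0.29 (edgeR adjusted p = 0.0212), and with the GC and length offset it was -0.49 (edgeR adjusted p = 9.97e-07). The amino acid transporter gene Slc38a4 was 314, 301 and 326 CPM in controls and 294, 293 and 289 CPM in MCKO, all MCKO values being lower, and its log2 fold change of -0.10 (SE 0.041) was not called (edgeR adjusted p = 0.0563). Without control replicate 2 it was -0.13 (edgeR adjusted p = 0.0132). The transporter gene Slc22a18, not tested, had 30 counts over the controls and 16 over MCKO, and its groups overlapped. Its MCKO level was 0.499 of the control level after scaling by library totals (95% counting limits 0.254 and 0.945). By mean TMM-scaled CPM it was 0.523.

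The chromosome 7 genes linked to Prader-Willi and Angelman syndromes in people did not move together. Ndn, a paternally expressed growth suppressor of the MAGE family, fell from 125, 141 and 126 CPM to 103, 107 and 111 CPM, a log2 fold change of -0.29 (SE 0.057, edgeR adjusted p = 0.00176). Magel2, a MAGE protein of endosomal sorting, was 2.72, 2.10 and 2.46 CPM and 1.88, 1.94 and 2.02 CPM without overlap, and its log2 fold change of -0.33 (SE 0.16) was not called (edgeR adjusted p = 0.106), but was -0.51 with the GC and length offset (edgeR adjusted p = 0.021). Snrpn, which encodes a spliceosome protein, rose slightly, from 67.4, 66.8 and 65.1 CPM to 75.8, 75.0 and 73.8 CPM, a log2 fold change of 0.17 (SE 0.042, edgeR adjusted p = 0.00572) that was 0.11 with library totals as the scale (edgeR adjusted p = 0.0454). Snrpn overlaps, on the same strand, Snurf and the predicted gene Gm38393, so its level depends on how reads were divided between them. Ube3a, the ubiquitin ligase that is imprinted in neurons, held 36.8, 26.6 and 18.0 CPM in controls and 11.9, 20.8 and 17.7 CPM in MCKO. The groups overlapped and the log2 difference came to -0.70 (SE 0.35, edgeR adjusted p = 0.144). The coefficient of variation of Ube3a was 34.6% in controls and 27.1% in MCKO, against member medians of 5.24 and 2.49%, and the estimated change was not called at this spread.

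The remaining members are scattered single genes. Nap1l5, an intronless histone chaperone relative, lies at ENSMUSG00000055430, chromosome 6, 58905233 to 58907076, minus strand. It had the largest fall, from 1.74, 1.79 and 1.97 CPM to 0.596, 0.912 and 0.989 CPM, a log2 fold change of -1.17 (SE 0.23, edgeR adjusted p = 0.00175). It rests on 148 counts over the controls and 66 over MCKO, 0.417 of the control level after scaling by library totals (95% counting limits 0.307 and 0.561). Nap1l5 lies inside Herc3 on the other strand, and Herc3 was also called lower, from 30.6 ± 2.48 to 21.0 ± 1.34 CPM (SD, n = 3), a log2 fold change of -0.54 (SE 0.077, edgeR adjusted p = 0.000257). The kit marks strand, but whether the authors' counting used it is not given.

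Zrsr1, a retrocopy that encodes a splicing factor, lies inside Commd1 in the same way. It was 5.91, 6.08 and 7.58 CPM in controls and 8.10, 8.29 and 8.17 CPM in MCKO, a log2 fold change of 0.32 (SE 0.12, edgeR adjusted p = 0.0382), while Commd1 moved the other way (-0.31). The call of Zrsr1 was lost in 9 of 16 alternatives, among them each of 5 that left out 1 library other than control replicate 3 (edgeR adjusted p 0.0800 to 0.139) and the replicate block (edgeR adjusted p = 0.0549). Impact, a translational regulator that restrains the kinase GCN2, fell from 65.2, 63.8 and 70.0 CPM to 56.6, 58.4 and 57.7 CPM, a log2 fold change of -0.21 (SE 0.05, edgeR adjusted p = 0.0057). Gnas, the stimulatory G protein alpha subunit, held 1021, 1097 and 997 CPM and 1094, 1121 and 1120.0 CPM with overlapping groups and a log2 fold change of 0.10 (SE 0.044, edgeR adjusted p = 0.0823). Gnas took the other sign with the GC and length offset (-0.09, edgeR adjusted p = 0.0217), and without control replicate 2 it was called higher (0.14, edgeR adjusted p = 0.00958).

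Between genes, levels are comparable only per length, here CPM per kilobase of the longest annotated transcript. In controls the order began with Mest at 1126 ± 53.5, Igf2 at 976 ± 32.8, Grb10 at 415 ± 9.48, Igf2r at 315 ± 1.53, Cdkn1c at 305 ± 52.5 and Gnas at 263 ± 13.3 CPM per kb (SD, n = 3). Igf2r, Cdkn1c and Gnas are neighbours whose spreads touch through the variable Cdkn1c. Plagl1 (149 ± 15.0) and Peg3 (132 ± 6.93) followed, and their SDs overlapped. In MCKO the first pair changed order, with Igf2 at 934 ± 13.02 and Mest at 783 ± 16.7 CPM per kb. Ascl2 was the lowest detected member in controls at 0.0521 CPM per kb and reached 1.11 CPM per kb in MCKO, close to Phlda2 (1.43) and below Zrsr1 (1.82). The order depends on the length used. With the median transcript length in place of the longest, Mest and Igf2 led in controls at 4945 and 4813 CPM per kb, but Igf2r (3483) stood above Grb10 (2232), and Plagl1 (1734) above Cdkn1c (869.9) and Gnas (609). In MCKO by that length, Igf2 (4604) was followed by Igf2r (4442) and then Mest (3439).

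**Figure D4:**
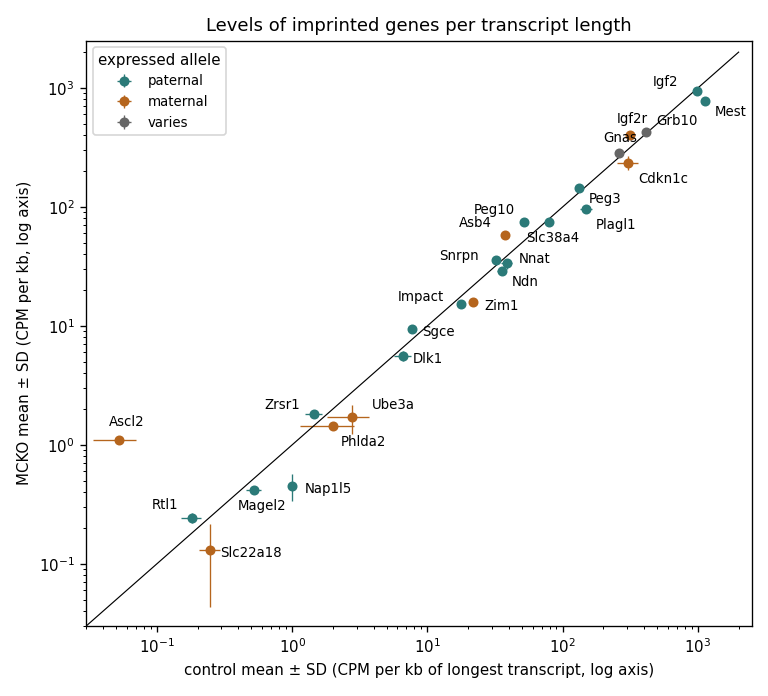
Mean level per kilobase of the longest transcript (CPM per kb ± SD over 3 libraries, log axes) in MCKO against control for the 26 members with counts, coloured by expressed allele, with the line of equal levels. Control levels run from Ascl2 at 0.0521 to Mest at 1126 CPM per kb, and Ascl2 is the point farthest above the line.

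The list of other imprinted genes had 51 names, of which 48 had a row and 41 were tested. Of these, 10 were called higher and 17 lower, with a median log2 fold change of -0.07, beside 29.3% and 29.1% of all tested genes. Sfmbt2, a paternally expressed Polycomb-related gene, rose from 4.02 ± 0.209 to 18.0 ± 1.17 CPM (SD, n = 3), a log2 fold change of 2.16 (SE 0.092, edgeR adjusted p = 1.22e-07). The tetraspanin gene Cd81 (0.41) and the glutaminyl cyclase gene Qpct (1.04) were also called higher (edgeR adjusted p = 3.94e-05 and 2.85e-05). Among called falls with a mean of at least 5 CPM, those with the smallest p were Phactr2, Osbpl5 and Herc3, with log2 fold changes of -0.87, -0.87 and -0.54 (edgeR adjusted p = 9.89e-07, 3.31e-06 and 0.000257). Dcn, below that mean and named after its values were seen, also fell (-2.08, edgeR adjusted p = 2.79e-06), and it is a cushion mesenchyme marker as well.

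A list around imprint maintenance, 22 genes with 19 tested, counted 3 higher and 7 lower, with a median log2 fold change of -0.03. With the GC and length offset 12 were lower. The list also held genes that do not keep imprints, among them the demethylation enzymes Tet1, Tet2 and Tet3. The shares over all tested genes were 29.3% higher and 29.1% lower. Uhrf1 fell from 255 ± 13.9 to 176 ± 0.907 CPM (SD, n = 3) and Dnmt1 from 331 ± 15.1 to 259.9 ± 3.23 CPM (SD, n = 3), with log2 fold changes of -0.53 (SE 0.047, edgeR adjusted p = 1.2e-05) and -0.35 (SE 0.043, edgeR adjusted p = 0.000113). The insulator protein gene Ctcf also fell (-0.29, edgeR adjusted p = 0.000301). Zfp57 rose from 62.0 ± 0.593 to 73.5 ± 2.36 CPM (SD, n = 3), a log2 fold change of 0.25 (SE 0.044, edgeR adjusted p = 0.00111), beside the demethylation enzymes Tet1 (0.77) and Tet3 (0.36). Zfp445 was listed at 0 in every library, which, as for Usp29, need not mean that it is silent. Methylation was not measured. Among the other inhibitors of cyclin-dependent kinases, calls were 2 higher and 1 lower among 5 tested, where 29.3% and 29.1% of all tested genes were called in those directions. Cdkn1a rose from 15.0 ± 1.25 to 51.7 ± 1.60 CPM and Cdkn1b from 33.4 ± 2.94 to 78.8 ± 4.55 CPM (SD, n = 3), with log2 fold changes of 1.80 (SE 0.069, edgeR adjusted p = 6.26e-08) and 1.24 (SE 0.071, edgeR adjusted p = 7.69e-07), while their imprinted relative Cdkn1c was not called.

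Marker lists of other cells, beside those already given, follow, where 29.3% of all tested genes were called higher and 29.1% lower. Endothelial and endocardial markers were called higher in 8 of 10 cases and lower in 2, and 5 of 10 cardiomyocyte markers were called higher. Of 8 tested epicardial markers 6 were called lower and 1 higher, and of 7 tested liver bud and yolk sac markers 5 were called lower and 2 higher. Neural tube markers had 3 of 6 called higher and 1 lower, and neural crest markers 1 of 6 in each direction, with Foxd3 at 0. Among the called markers Afp, Alb, Ttr, Hnf4a and Sox10 passed the filter on low counts only through the controls. Foxa2 and Sox2 passed it only through MCKO. Once tested these 7 had to differ, so their calls are no support for a shift. Skeletal muscle progenitor genes summed to at most 0.172 CPM with Myod1 at 0, and 3 of 5 macrophage markers were called lower with C1qa at 0. The part of these shifts in the changes of the imprinted genes was not tested, and the member counts were the same, 8 higher and 6 lower, when mitochondrially encoded genes were left out.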

How the data were processed

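RNA of whole hearts was measured in 6 libraries. The kits were Aurum Total RNA Mini for extraction and TruSeq Stranded LT mRNA for the libraries, per the labels' protocols. The authors deposited estimated counts in whole numbers, with a row per Ensembl gene. Per the submitters' processing notes, kallisto and mm10 were used; no source used here gives versions, the transcript set or the strand setting. Knockout columns, headed CKO where titles have MCKO, were matched on the rest of their names. No column belonged to other samples.

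Counts were fitted with edgeR 4.0.16 in R 4.3.3 (limma 3.58.1): default filterByExpr, TMM, robust quasi-likelihood, group only, 2-sided, Benjamini-Hochberg over 14697 genes. The series gives 3 hearts per set but no library-to-heart map, so the p-values reflect the spread among these libraries alone, and that spread may be technical. Levels are CPM on TMM-scaled totals. The SE is the absolute log2 fold change over the square root of F. Intervals and floors cover counting error only. Ratios of pooled counts and their limits were scaled by library totals, without TMM factors. The total of each library was 26983608, 19256840 and 32169289 counts in controls and 34246477, 25712499 and 23883877 in MCKO.

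The members and lists were chosen with earlier results of these data known, from general knowledge of imprinting. The text names Cdc42, every tested member and, from each list, up to 3 called genes per direction by smallest p with a mean of at least 5 CPM. Symbols, coordinates and transcript lengths came from GENCODE M21 on GRCm38 (29857 of 30323 IDs matched), promoter sequences from RefSeq. No member had a near-identical copy (minimap2, 95% identity over 80% of the length). Replicates differed by chi-square per degree of freedom of 3.56 to 15.5 within groups, so none was taken for a copy.

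The fit was tested on simulated counts (14510 genes): it recovered 10, 58, 80 and 90% of genes changed by 0.25, 0.5, 1 and 2 on the log2 scale, with 11 false among 130 calls. Only 50 genes were changed at each size, where 58.4% of tested genes were called in the data. The adjustment of p depends on that share, so these percentages are not the recovery in this comparison. Alternatives were other size factors, library totals, other filters, DESeq2 1.42.0, a replicate block, a stricter threshold, no mitochondrial genes, a GC and length offset with and without the block, and each library left out.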

Additional observations from a re-analysis of the deposited data

How the results depend on the processing

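The members called higher ranged from 6 to 8 and those called lower from 5 to 13 over 16 alternatives, with 6664 to 9574 genes called in all against 8587. Lower members numbered 10 with library totals only, 13 with the GC and length offset, 11 with that offset and the replicate block, and 6 to 10 when libraries were left out, 10 being without control replicate 3; DESeq2 gave 7 higher and 7 lower. Higher calls made up 50.2% of all calls, 42.6% with library totals, which lowered the median of all genes to -0.06, and 42.5% with the offset, where that median was also -0.06. Of the 25 tested members, 15 kept call and direction in every alternative that gave a value, and 12 of these were called. Peg3 turned to -0.0099 with the offset and -0.0094 with the offset and block, Grb10 to -0.026 with library totals, and Gnas to -0.086 with the offset and -0.085 with the offset and block. The cause was not tested. With the offset, alone or with the block, lower calls rose to 11 in IGF and insulin signalling and to 12 among imprint maintenance genes. CDK inhibitors called higher numbered 4 with no filter, and 0 were lower at a threshold of 0.01 against 1 at 0.05. With the median transcript length, Mest, Igf2, Igf2r and Grb10 stood at 4945, 4813, 3483 and 2232 CPM per kb in controls, so Grb10 was no longer next after Igf2. The Cdkn1c to Phlda2 difference ranged from -0.20 without control replicate 2 to 0.25 when libraries were left out, and was -0.05 without MCKO replicate 3.

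Same-numbered libraries did not deviate together (correlations 0.0028, 0.021 and -0.12), so no large deviation shared by number was seen. Litters are not given, and with 3 libraries per group this cannot exclude that the numbers pair the samples. With the replicate block 6 members were higher, 6 were lower and 7765 genes were called, Peg3 and Zrsr1 losing their calls. Depth limited Ascl2, Slc22a18, Nap1l5, Phlda2, Rtl1 and Magel2.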
